A study of Mus musculus with 16 samples.

Results

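The interferon response genes described here are 41 mouse genes listed by symbol: sensors of viral RNA, the transcription factors that carry the interferon signal, antiviral effectors and regulators, interferon-inducible GTPases and proteins of MHC class I antigen presentation. A member needed a row in the table of normalized counts and a value of at least 10 in at least 4 of the 16 libraries. Of the 41 symbols, 40 had a row and all 40 passed, out of 22372 genes in the table and 13331 that passed. Nlrc5, an activator of MHC class I genes, was not analysed here. The 40 genes comprised 3 sensors, 4 transcription factors, 19 antiviral effectors and regulators, 9 GTPases and 5 genes of MHC class I presentation.

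RNA came from ventricle pieces of C57BL/6J mice that were 10 to 12 weeks old when the experiment began, and the study's methods give male animals. The 4 groups held 4 libraries each: sham surgery with vehicle (Sham-Veh), sham surgery with THZ1 (Sham-THZ1), transverse aortic constriction with vehicle (TAC-Veh) and the constriction with THZ1 (TAC-THZ1). The constriction narrows the aortic arch with a suture and puts a pressure load on the left ventricle, and sham mice had the operation without it. THZ1, a covalent inhibitor of the transcriptional kinases CDK7, CDK12 and CDK13, was injected intraperitoneally at 10 mg/kg b.i.d. from day 1 to day 60 after surgery, a systemic route that is not limited to the heart. The libraries are numbered within each group and were taken as separate mice, and the p-values below measure the spread between these libraries.

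Interferons are secreted proteins that cells release on sensing a virus or another pathogen. Type I interferons signal through the receptor of Ifnar1 and Ifnar2 to a complex that contains IRF9 and binds a promoter element called ISRE. Interferon gamma, made mainly by T cells and NK cells, signals through Ifngr1 and Ifngr2 to factors that bind an element called GAS, and it induces IRF1, which acts on ISRE-like sites in turn. The Ifit, Oas, Mx and Isg15 genes are classical type I targets, whereas the guanylate-binding proteins (Gbp) and the immunity-related GTPases (Igtp, Irgm1, Irgm2, Iigp1) respond strongly to interferon gamma, although both types induce both sets in part. In the heart these genes can be switched on in cardiomyocytes, endothelial cells, fibroblasts and resident or infiltrating leukocytes alike.

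Promoters of a few members are shown because ISRE and GAS elements are where interferon signals reach these genes. RefSeq promoters (build GRCm38.p6, 250 bases before to 50 after the start) were given for 31 of the 40 members, with 36 starts in all. A shortened ISRE core, GAAANNGAA, and a GAS core, TTCNNNGAA, were searched on both strands, where N is any base. The ISRE core was in 18 of the 36 promoters (50%), against 8.56% of all 32851 promoters in the table, and the GAS core in 8 (22.2%), against 8.30%. Both cores stood in 5 of the 36 (13.9%), against 1.07% of all promoters. Of the 7 GTPase promoters, 6 held the ISRE core and 3 the GAS core. No promoter was given for the GTPases Gbp4, Gbp6 and Iigp1, so these were not searched. Matches are given as letters found and were not tested as binding sites. In the following 6 promoters, printed 5′ to 3′ in the direction of the gene, capitals mark the matches to either core; the first 2 belong to antiviral effectors, the next 3 to GTPases and the last to a transcription factor.
Isg15, chr4:156200769-156201068, minus strand: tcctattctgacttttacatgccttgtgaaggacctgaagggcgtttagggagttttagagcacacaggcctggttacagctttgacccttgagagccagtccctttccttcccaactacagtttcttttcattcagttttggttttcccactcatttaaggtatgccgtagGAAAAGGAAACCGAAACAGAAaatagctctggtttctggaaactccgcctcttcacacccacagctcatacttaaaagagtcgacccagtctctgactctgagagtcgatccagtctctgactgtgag
Ifit3, chr19:34583279-34583578, plus strand: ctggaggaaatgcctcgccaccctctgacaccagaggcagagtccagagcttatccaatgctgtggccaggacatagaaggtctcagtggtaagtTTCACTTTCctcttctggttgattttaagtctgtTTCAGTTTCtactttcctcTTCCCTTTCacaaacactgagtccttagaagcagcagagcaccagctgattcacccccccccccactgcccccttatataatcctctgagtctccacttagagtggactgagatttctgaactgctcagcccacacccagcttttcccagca
Igtp, chr11:58199306-58199605, plus strand: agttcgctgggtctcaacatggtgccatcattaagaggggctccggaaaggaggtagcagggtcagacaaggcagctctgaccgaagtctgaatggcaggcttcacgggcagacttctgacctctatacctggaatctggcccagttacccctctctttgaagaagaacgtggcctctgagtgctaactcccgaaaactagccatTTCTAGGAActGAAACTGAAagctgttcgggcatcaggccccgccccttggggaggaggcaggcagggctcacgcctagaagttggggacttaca
Irgm2, chr11:58214727-58215026, plus strand: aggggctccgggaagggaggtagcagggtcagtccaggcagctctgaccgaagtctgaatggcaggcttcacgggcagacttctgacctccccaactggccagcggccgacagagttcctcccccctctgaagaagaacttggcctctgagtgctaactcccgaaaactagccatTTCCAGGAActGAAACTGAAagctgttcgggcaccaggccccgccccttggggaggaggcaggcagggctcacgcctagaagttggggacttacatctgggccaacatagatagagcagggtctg
Gbp2, chr3:142620413-142620712, plus strand: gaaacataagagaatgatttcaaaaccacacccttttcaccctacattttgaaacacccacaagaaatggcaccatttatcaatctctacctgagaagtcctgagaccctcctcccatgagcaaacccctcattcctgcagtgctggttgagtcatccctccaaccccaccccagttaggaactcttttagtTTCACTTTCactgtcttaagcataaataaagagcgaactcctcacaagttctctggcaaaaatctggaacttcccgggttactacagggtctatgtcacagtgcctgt
Irf1, chr11:53769764-53770063, plus strand: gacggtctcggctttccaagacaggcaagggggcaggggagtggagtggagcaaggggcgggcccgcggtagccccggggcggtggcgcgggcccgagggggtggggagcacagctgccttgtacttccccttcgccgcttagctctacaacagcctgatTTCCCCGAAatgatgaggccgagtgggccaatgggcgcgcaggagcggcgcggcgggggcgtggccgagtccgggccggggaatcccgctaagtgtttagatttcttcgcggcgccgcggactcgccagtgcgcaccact
Isg15, which encodes a ubiquitin-like modifier, held 3 overlapping ISRE cores whose first bases lay 78, 72 and 66 bases before the start. Ifit3, an antiviral protein with tetratricopeptide repeats, held 3 separate ones at 155, 121 and 102 bases. In Igtp a GAS core began 45 bases and an ISRE core 34 bases before the start, and in Irgm2 the same pair began at 75 and 64 bases. Igtp and Irgm2 are neighbouring genes, and with the pair aligned 184 of 270 promoter bases were the same (68.1%), including an unbroken run of 61. Gbp2 held an ISRE core at 58 bases and no GAS core. The first of the Irf1 promoters held a GAS core at 90 bases and no ISRE core.

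Many members lie in clusters of related genes, which bears on how well 40-base reads can be assigned. On the build of the deposited counts (NCBIM37, mm9), Gbp7, Gbp3 and Gbp2 lie within chr3:142193302-142300972, Gbp4 and Gbp6 within chr5:105544786-105722718, Igtp and Irgm2 within chr11:58013058-58036282, and Ifit2, Ifit3 and Ifit1 within chr19:34625184-34724499. Of the 40-base words in the coding transcripts of Gbp6, 84.5% also occurred in another gene, mainly Gbp10 and Gbp4, and the share was 59.1% for Oas1a, 57% for Ifit3, 19.1% for H2-D1 and 16.6% for Gbp4. These 5 genes are reported as uncertain for that reason. The share was 12.8% for H2-K1, 11.6% for Igtp, 8.75% for Mx2, 8.33% for Ifit1 and 8.27% for Irgm2, and 0 in 16 members, among them Irf1, Ifi35, Rtp4 and Rsad2. Irf9 overlaps Rnf31 and Tapbp overlaps Zbtb22 on the same strand, so reads in these overlaps may be left out or miscounted. Irf7 overlaps Phrf1 on the other strand, as some other members do with other genes, and counting by strand separates such reads.

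The libraries held 21.4 to 35.8 M (mega) recovered reads in genes, and the lowest read number of any member in any library was 9 (Mx1). In Sham-Veh, the mean normalized count per kilobase of exon was 7825 for B2m, the light chain of MHC class I, and 1384 and 1318 for the heavy chains H2-K1 and H2-D1. The levels per kilobase were 612 for Iigp1, 547 for Bst2, 280 for Gbp2 and 190 for Irf1, and 7.07 for Mx1, the lowest, a gene known to carry a disrupting deletion in common inbred strains. Members had a median SD between replicate libraries (log2 values) of 0.219 for Sham-Veh, 0.178 for Sham-THZ1, 0.447 for TAC-Veh and 0.50 for TAC-THZ1. All 13331 genes had medians of 0.0980, 0.0916, 0.218 and 0.141. The members thus varied between libraries of a group more than the median gene did in all 4 groups. Summed counts of 6 cardiomyocyte markers were 659329 to 1334200 in all libraries, with the 4 TAC-Veh libraries the lowest, and those of 3 atrial markers were 25.1 to 82.3. In bulk tissue, fewer cells of a type and less RNA per cell cannot be told apart, and this holds for every result below.

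**Figure D1:**
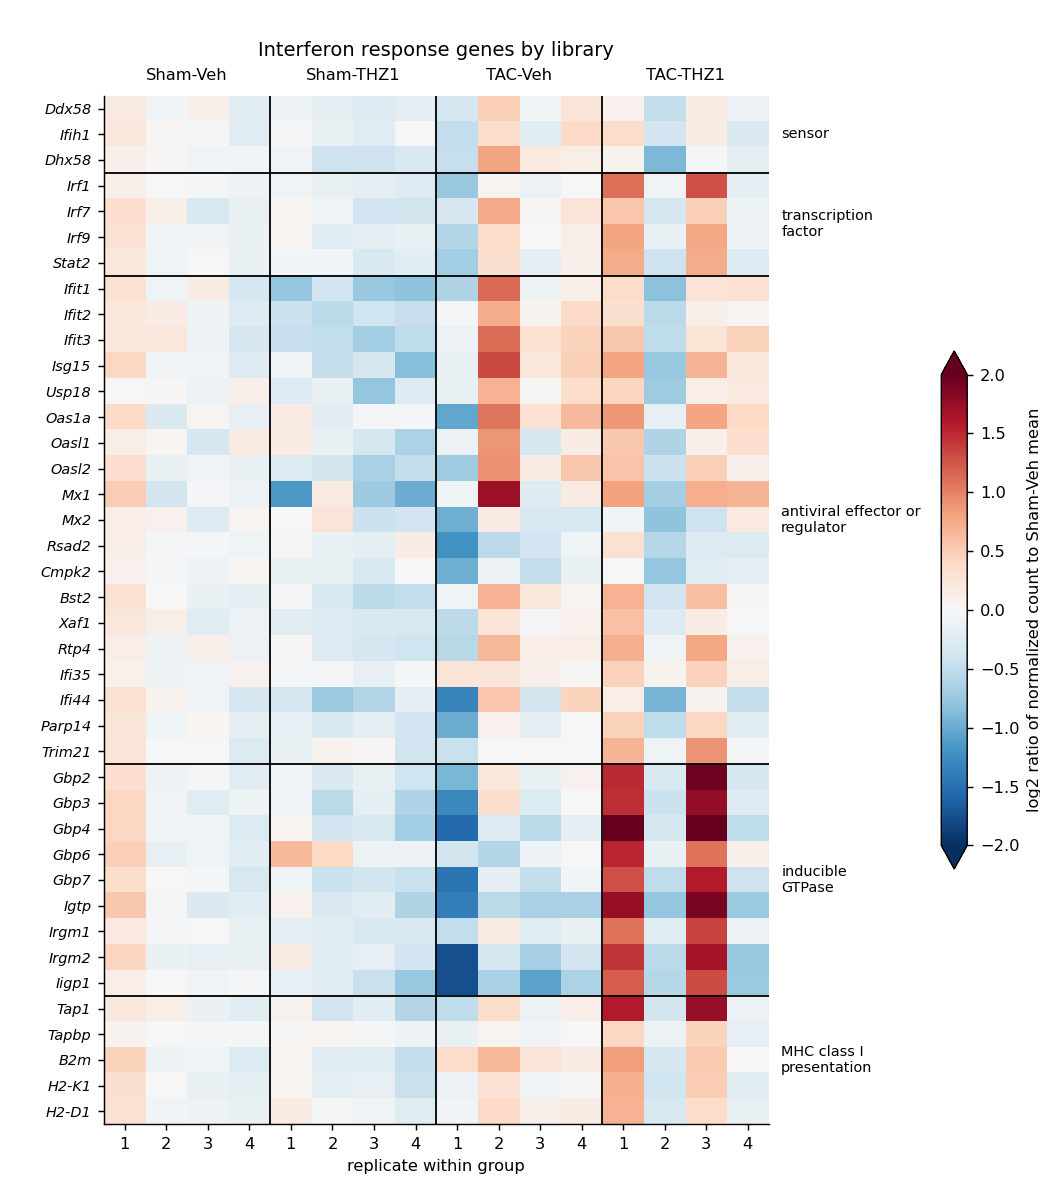
Colour shows the log2 ratio of each gene's normalized count to its Sham-Veh mean, with genes in rows by role and the 16 libraries in columns by group and replicate; the scale is clipped at -2 and 2. The GTPase block is red in TAC-THZ1 replicates 1 and 3 and not in replicates 2 and 4, and the antiviral block is reddest in TAC-Veh replicate 2.

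Pressure overload with vehicle was compared with sham surgery with vehicle to see whether the constriction alone moved the interferon response. The comparison called 0 of the 40 members higher and 2 lower, Rsad2 and Iigp1, at an adjusted p under 0.05, against 21.4% of all genes called higher and 23.6% called lower. The median log2 fold change of the members was -0.03, against -0.003 over all genes, and 19 members lay above 0 and 21 below. At an unadjusted p under 0.05 there were 3 of the 40 members, the third being Cmpk2, the head-to-head neighbour of Rsad2, and all 3 were lower, against 52.2% of all genes in either direction. DESeq2 and edgeR, run on recovered reads, called 0 higher and the same 2 lower, against 23.4% and 22.9% of all genes lower. Cmpk2 was called lower as well without TAC-Veh replicate 2, TAC-Veh replicate 4 or TAC-THZ1 replicate 2.

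Iigp1 is a GTPase that coats and breaks the vacuoles of intracellular parasites. Its normalized counts in Sham-Veh replicates 1 to 4 were 2090, 1906, 1799 and 1849, and in TAC-Veh 562, 1211, 912 and 1230. The groups did not overlap, and TAC-Veh replicate 1 was the lowest library. Iigp1 fell by 1.03 on the log2 scale (SE 0.38, adjusted p = 0.0367).
Rsad2 encodes viperin, which makes a chain-terminating nucleotide that stops viral RNA synthesis. It stood at 867, 775, 774 and 738 in Sham-Veh and at 341, 546, 602 and 738 in TAC-Veh, so that only TAC-Veh replicate 4 reached the sham range. Rsad2 fell by 0.55 (SE 0.19, adjusted p = 0.0277). Without TAC-Veh replicate 1, the changes of Iigp1 and Rsad2 were -0.78 and -0.33 with adjusted p of 0.112 and 0.0899. Leaving out Sham-Veh replicate 1 or 2 also took both above 0.05, and leaving out Sham-Veh replicate 3 or 4 or TAC-Veh replicate 3 took Iigp1 above it, with adjusted p between 0.0594 and 0.0753 for Iigp1.

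All 9 GTPases had a log2 fold change below 0 in TAC-Veh, from -1.03 for Iigp1 to -0.17 for Irgm1, with a median of -0.54. Igtp and Irgm2, regulators of the effector GTPases, joined Iigp1 in having no overlap between the groups: Igtp was at 736, 495, 414 and 438 in Sham-Veh and at 193, 350, 324 and 323 in TAC-Veh, and Irgm2 at 1114, 756, 741 and 749 and at 243, 651, 524 and 643. Groups without overlap, lower in TAC-Veh, were found for 3 of the 40 members and for 19.1% of all genes, and 0 members were higher without overlap, against 18.2%. The fold changes of Igtp and Irgm2 did not pass the test in the fit of all 16 libraries. In a fit of these 2 groups alone, Igtp (-0.80, adjusted p = 0.0181) was called as well as Iigp1 (adjusted p = 0.00509) and Rsad2 (0.0496), where 18.3% of all genes were called lower. The 2 fits estimate the spread from different libraries, and the fit of all 16 includes the TAC-THZ1 libraries, in which the GTPases varied most. The 3 sensors moved by 0.004 to 0.16, the 4 transcription factors by -0.20 to 0.18, and the 5 MHC class I genes by -0.04 to 0.36. The 19 antiviral genes had a median of 0.14, with Isg15 at 0.47 the most positive.

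The TAC-Veh libraries differed among themselves across the antiviral genes. Ifit1, whose product binds viral RNA caps, was at 115, 385, 162 and 191 in TAC-Veh replicates 1 to 4. Isg15 was at 78.8, 217, 100.1 and 121, and Mx1, a GTPase against influenza-type viruses, at 23.5, 85.8, 20.8 and 28.1. Replicate 2 was the highest of the 4 for 33 of the 40 members and replicate 1 the lowest for 35, so the group mean joined libraries that stood apart. Without TAC-Veh replicate 1, 2 members (Ifit3 and Oas1a) were called higher and 0 lower in TAC-Veh than in Sham-Veh. Over the fits that left out 1 library each, 17.8% to 22.9% of all genes were called higher and 20.1% to 25.3% lower.

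**Figure D2:**
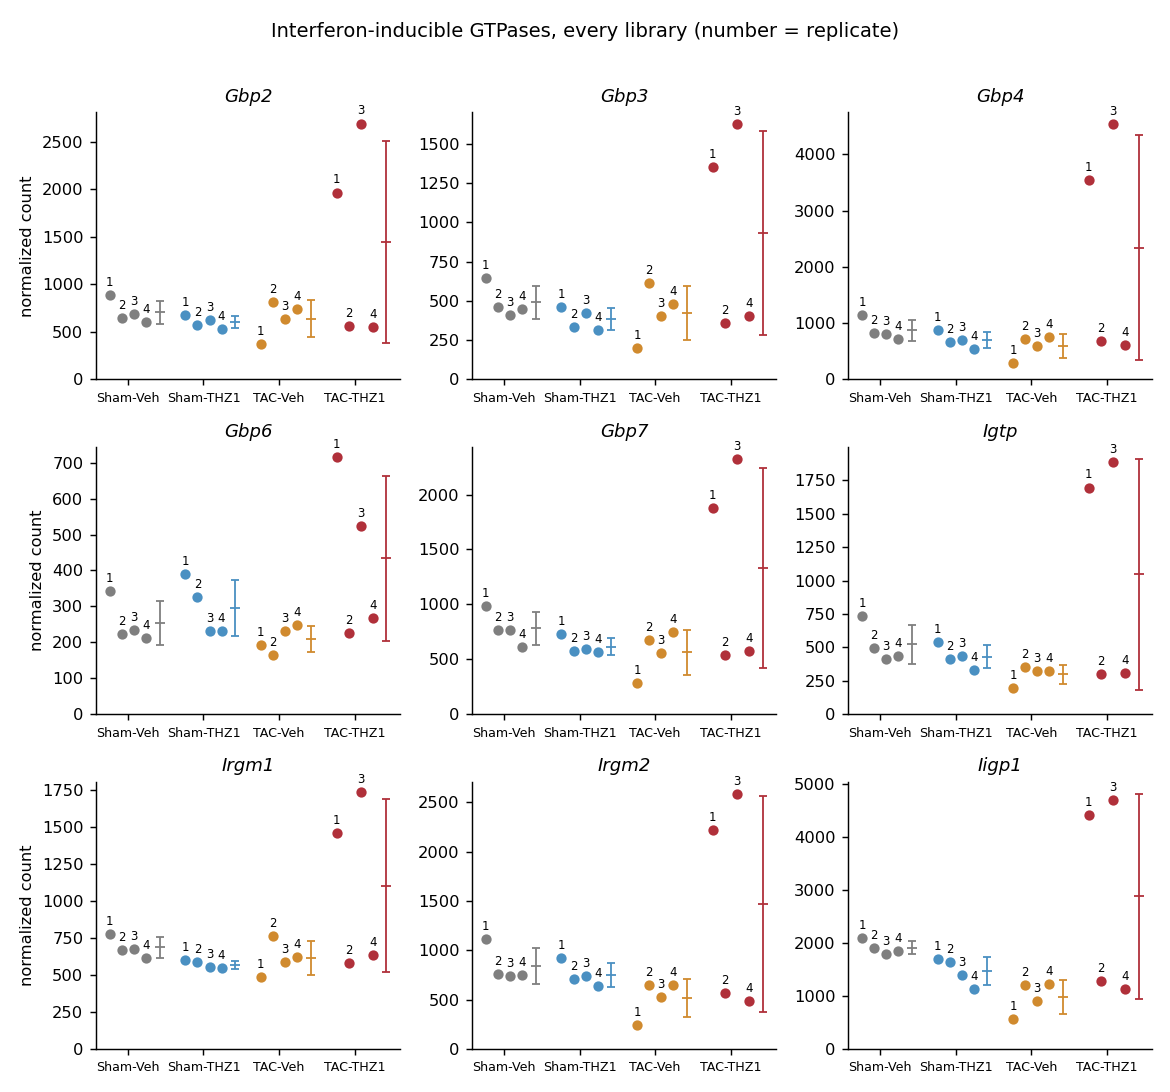
Each panel plots the normalized count of 1 GTPase in the 16 libraries by group, with the replicate number above each point and a bar for the group mean ± SD (n = 4). In all 9 panels TAC-THZ1 replicates 1 and 3 lie above the other 14 libraries, while replicates 2 and 4 lie within or near the range of TAC-Veh.

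Constriction with THZ1 was compared with constriction with vehicle to see what the inhibitor changed under load. The comparison called 6 of the 40 members higher, the GTPases Iigp1, Gbp6, Gbp4, Igtp and Irgm2 and the transcription factor Irf1, and 0 lower, against 15.1% of all genes higher and 14.2% lower. The share of members called higher was near the background. DESeq2 called 12 of the 40 higher, against 15.6% of all genes, and edgeR 11, against 14.7%, and both called 0 lower. The median of the members was 0.15, against 0.01 over all genes, and 26 lay above 0. The role groups differed in their medians, which were 1.03 for the 9 GTPases (range 0.69 to 1.53), 0.34 for the transcription factors, 0.11 for MHC class I, 0.001 for the antiviral genes and -0.17 for the sensors. All 9 GTPases were under an unadjusted p of 0.05, as were Irf1 and Trim21, making 11 of the 40 members against 40.8% of all genes. Adjusted p-values of the GTPases ran from 0.0155 to 0.107. These rest on a spread pooled over all 16 libraries, whereas the log2 SD of Iigp1 was 0.09 in Sham-Veh and 1.11 in TAC-THZ1. With the sham libraries left out of the model, 0 members were called in either direction. The 6 members called higher above then had adjusted p-values from 0.0987 (Iigp1, SE 0.48) to 0.179 (Irf1). The share of all genes called in that setting is not given.

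The high values were those of 2 of the 4 TAC-THZ1 libraries. Gbp4, a guanylate-binding protein of the chromosome 5 cluster, was at 292, 712, 591 and 750 in TAC-Veh and at 3546, 672, 4533 and 601 in TAC-THZ1. Replicates 1 and 3 were 6.05 and 7.73 times the TAC-Veh mean and replicates 2 and 4 were 1.15 and 1.02 times that mean. The log2 fold change was 1.53 (SE 0.52, adjusted p = 0.0345).
Iigp1 was at 4428, 1287, 4696 and 1139 in TAC-THZ1, against 562 to 1230 in TAC-Veh (1.33, SE 0.38, adjusted p = 0.0155). Replicates 1 and 3 exceeded every sham library too, whereas replicates 2 and 4 lay below all 4 Sham-Veh libraries. Gbp6, most of whose words are shared with Gbp10, was at 192, 165, 230 and 247 in TAC-Veh and at 715, 227, 525 and 266 in TAC-THZ1 (0.91, SE 0.30, adjusted p = 0.0288).
Irf1, whose promoter above held a GAS core not tested as a binding site, encodes a factor that interferon gamma induces. It was at 443, 784, 696 and 762 in TAC-Veh and at 1613, 722, 1824 and 658 in TAC-THZ1 (0.73, SE 0.26, adjusted p = 0.0460). Its groups overlapped, and no member had groups without overlap in this comparison, where 9.53% of all genes were higher and 10.5% lower without overlap.

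The other GTPases followed the same libraries. Igtp was at 1697, 297, 1888 and 304 in TAC-THZ1, Irgm2 at 2223, 568, 2586 and 489, Gbp2 at 1966, 564, 2693 and 546, and Irgm1 at 1456, 579, 1736 and 630. In replicate 2 the 9 GTPases were between 0.84 and 1.31 times their TAC-Veh mean, in replicate 4 between 0.86 and 1.28 times, and in replicates 1 and 3 between 2.37 and 7.73 times. The SD of the 4 log2 values of Gbp4 was 1.54, larger than that of 99.8% of all genes in the group, and that of Gbp6, the smallest of the 9, exceeded that of 97.9%. Across the members, replicates 1 and 3 were both above all 14 other libraries for 19 of 40 genes: 9 of 9 GTPases, 3 of 4 transcription factors (Irf1, Irf9, Stat2), 3 of 5 MHC class I genes (Tap1, Tapbp, H2-K1), 4 of 19 antiviral genes (Rtp4, Ifi35, Parp14, Trim21) and 0 of 3 sensors. The share of all genes with this order was not computed, so the count cannot be called particular to the members. Tap1, a peptide transporter for MHC class I loading, was at 1013, 262, 1133 and 313 in TAC-THZ1 and at 224 to 431 in the other 12 libraries. Its fold change of 0.75 against TAC-Veh had an adjusted p of 0.137 and did not pass.

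**Figure D3:**
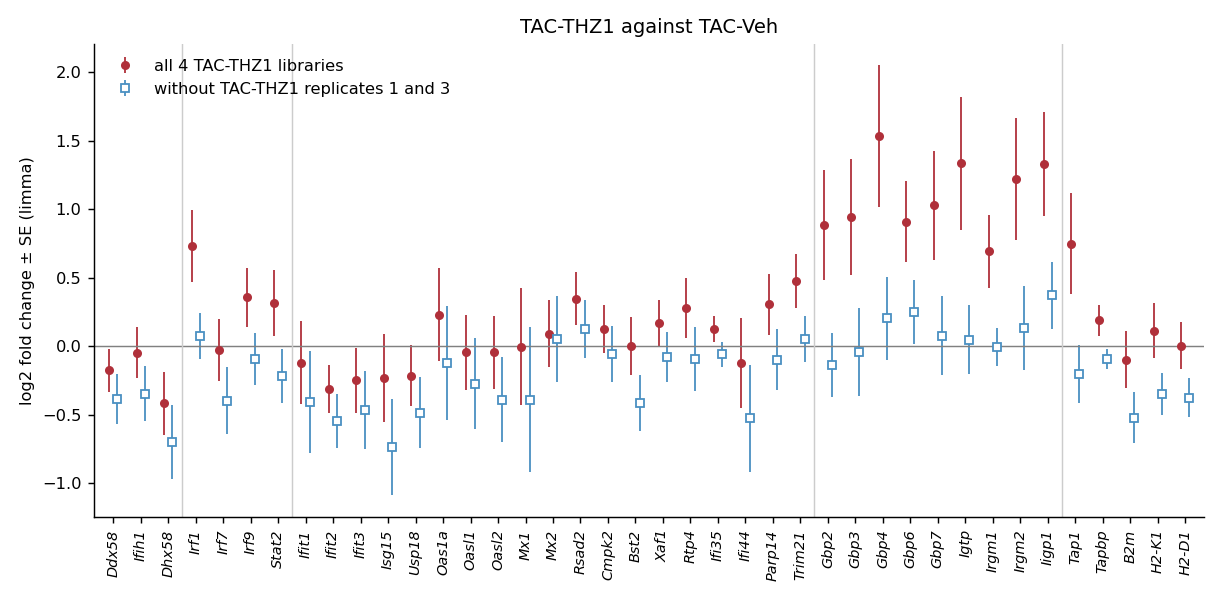
Points give the log2 fold change of each member, TAC-THZ1 against TAC-Veh, with bars of ± 1 SE from limma; filled circles use all 4 TAC-THZ1 libraries and open squares leave out replicates 1 and 3. The GTPases, separated by vertical lines, move from 0.69 to 1.53 down to -0.14 to 0.37.

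Without both of these libraries, a setting chosen after their values were seen, 0 members were called in either direction, while 12.5% of all genes were called higher and 12% lower. The GTPase median was then 0.08 (range -0.14 to 0.37), the median of all 40 members -0.13, and 30 members lay below 0. Without replicate 1 alone or replicate 3 alone, 0 members were called higher, and without replicate 2 or replicate 4, 12 members were; over the 16 fits that left out 1 library, 10.2% to 17.6% of all genes were called higher. In the fit of all groups without both libraries, 5 members were called lower in TAC-Veh than in Sham-Veh, namely Rsad2, Gbp4, Igtp, Irgm2 and Iigp1, against 23.8% of all genes. The called GTPases also depended on the vehicle libraries: without TAC-Veh replicate 1 the calls were Gbp6 and Iigp1, and without TAC-Veh replicate 2 the call was Iigp1. Leaving out any 1 sham library or TAC-Veh replicate 3 left Gbp4, Gbp6 and Iigp1. Without TAC-Veh replicate 1, Dhx58, the sensor LGP2, was also called lower.

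THZ1 in sham mice was compared with vehicle in sham mice to see its effect without load. Limma called 0 of the 40 members higher and 0 lower, as did DESeq2 and edgeR on recovered reads, and limma called 0.0225% of all genes higher and 0.045% lower. At an unadjusted p under 0.05 there were 3 of the 40 members, all from the Ifit cluster, against 6.88% of all genes, which is near the members' share. Of the members, 39 of 40 fold changes lay below 0, with a median of -0.25 against 0.003 over all genes. Ifit2, an antiviral protein of the same family as Ifit3, was at 642, 611, 515 and 464 in Sham-Veh and at 409, 385, 421 and 403 in Sham-THZ1. Ifit1 was at 215, 164, 193 and 137 and at 101, 133, 103 and 99.3. Both had groups that did not overlap, and so did Ifit3, Dhx58, Usp18, Oasl2, Irgm1 and Iigp1, all 8 lower with THZ1, against 5.05% of all genes lower and 6.29% higher without overlap. The fold change was -0.45 (SE 0.17, adjusted p = 0.662) for Ifit2 and -0.68 (SE 0.30, adjusted p = 0.695) for Ifit1 in the fit of all 16 libraries.

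In a fit of the sham groups alone, where the spread is that of the 8 sham libraries, 6 members were called lower: Ifit1, Ifit2, Ifit3, Oasl2, Irgm1 and Iigp1, with adjusted p between 0.0162 and 0.0483, against 1.34% of all genes called lower in that fit. With weights for libraries, Ifit1, Ifit2 and Ifit3 were called lower, against 1.94% of all genes. Sham-Veh replicate 1 was the highest of its group for 37 of 40 members, and Sham-THZ1 replicate 1 for 27. The exception in direction was Gbp6 (0.21), at 344, 221, 233 and 211 in Sham-Veh and at 389, 327, 231 and 230 in Sham-THZ1.

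Constriction with THZ1 was also compared with sham surgery with THZ1, the effect of load in treated mice. The comparison called 4 of 40 members higher, Ifi35, Ifit3, Irgm1 and Rtp4, and 0 lower, against 11.4% and 12.8% of all genes. The median was 0.47 against 0.002 over all genes, 37 members lay above 0 and 18 of the 40 were under an unadjusted p of 0.05, against 37.9% of all genes. DESeq2 called 16 members higher, against 12.9% of all genes, and edgeR 11, against 12.1%, and both called 0 lower. In a limma fit of these 2 groups alone, Ifi35, Ifit3 and Rtp4 kept the call and Irgm1 lost it (adjusted p = 0.0712). Ifit1 (adjusted p = 0.0410), Ifit2 (0.0433) and Oasl2 (0.0276) were called higher in that fit. The share of all genes called there is not given. This comparison and the preceding one share the Sham-THZ1 libraries, and it shares the TAC-THZ1 libraries with the comparison against TAC-Veh.

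Ifi35, which acts in innate immune signalling, was at 344, 345, 311 and 340 in Sham-THZ1 and at 484, 369, 485 and 380 in TAC-THZ1. It was the only member without overlap between these groups (0.35, SE 0.10, adjusted p = 0.0164), where 15.7% of all genes were higher without overlap. Ifit3 was at 126, 124, 110 and 124 in Sham-THZ1 and at 256, 123, 212 and 240 in TAC-THZ1, where replicate 2 stood at the sham level (0.72, SE 0.23, adjusted p = 0.0345).
Irgm1, which guards host membranes against the effector GTPases, was at 598, 586, 549 and 543 in Sham-THZ1 and at 1456, 579, 1736 and 630 in TAC-THZ1 (0.79, SE 0.27, adjusted p = 0.0418). Rtp4, a receptor transporter protein with antiviral activity, was at 208, 169, 160 and 155 and at 340, 195, 351 and 217 (0.63, SE 0.22, adjusted p = 0.0471). For Rtp4 only TAC-THZ1 replicate 2 fell below the highest Sham-THZ1 library. Without TAC-THZ1 replicates 1 and 3, 0 of the 40 members were called and the fold changes were 0.16 for Ifi35, 0.51 for Ifit3, 0.09 for Irgm1 and 0.26 for Rtp4. The count of called members was also 0 without TAC-THZ1 replicate 1, replicate 3 or Sham-THZ1 replicate 3. It was 1 to 2 without any other 1 sham library, 8 to 9 without TAC-Veh replicate 1, TAC-Veh replicate 2 or TAC-THZ1 replicate 4, and 21 without TAC-THZ1 replicate 2. Over the fits that left out 1 library each, 6.67% to 14.9% of all genes were called higher, and without both TAC-THZ1 replicates 1 and 3 it was 3.27%.

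The interaction, the THZ1 effect under load minus that in sham mice, called 0 of 40 members in either direction, against 4.4% of all genes more positive and 5.62% more negative. At an unadjusted p under 0.05 there were 8 of the 40 members, 7 of them GTPases and the other Irf1, against 27.1% of all genes. Of the 40 estimates, 39 lay above 0, with a median of 0.39 against 0.02 over all genes. The most positive were Gbp4 (1.87, SE 0.73, adjusted p = 0.111) and Iigp1 (1.72, SE 0.54, adjusted p = 0.0514). DESeq2 on recovered reads called 5 members more positive (Irf1, Gbp4, Igtp, Irgm1 and Iigp1), against 6.38% of all genes, and edgeR 2 (Gbp4 and Iigp1), against 4.38%. Without TAC-THZ1 replicates 1 and 3 the GTPase median was 0.31 instead of 1.37, and 0 members were called. The median of all 40 members was then 0.06, with 24 above 0 and 16 below. Without TAC-Veh replicate 4 limma called Iigp1, without TAC-THZ1 replicate 2 Irgm1 and Iigp1, and without TAC-THZ1 replicate 4 Irf1, Gbp4 and Iigp1. Over the fits that left out 1 library each, 1.85% to 9.32% of all genes were called more positive.

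**Figure D4:**
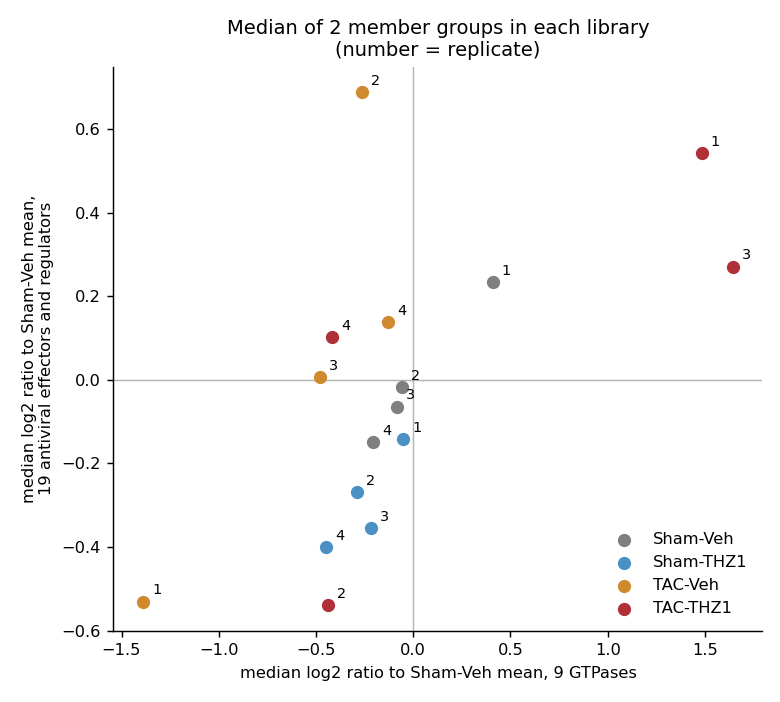
Each point is 1 library, with the median log2 ratio to the Sham-Veh mean of the 9 GTPases on the horizontal axis and of the 19 antiviral effectors and regulators on the vertical axis; colours are groups and numbers are replicates. TAC-THZ1 replicates 1 and 3 lie far to the right (1.48 and 1.64), whereas TAC-Veh replicate 2 is the highest point (0.69) with a GTPase median of -0.27.

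The GTPases and the antiviral genes did not order the libraries alike. In TAC-THZ1 replicates 1 and 3 the GTPase medians, as log2 ratios to the Sham-Veh mean, were 1.48 and 1.64, and the antiviral medians 0.54 and 0.27. In TAC-Veh replicate 2 the antiviral median was 0.69 and the GTPase median -0.27. TAC-THZ1 replicates 2 and 4 had nearly the same GTPase median, -0.44 and -0.42, and antiviral medians of -0.54 and 0.10. Mx1, for example, was at 44.8, 15.3, 42.3 and 40.6 in TAC-THZ1, so that replicate 4 went with replicates 1 and 3, whereas Gbp4 in replicate 4 went with replicate 2. Replicates 1 and 3 were both above replicates 2 and 4 for 34 of the 40 members, and the 6 exceptions were Ifit1, Ifit3, Usp18, Oasl1, Mx2 and Cmpk2, all antiviral genes. This is a description of single libraries. The share of all genes with replicates 1 and 3 above 2 and 4 was not computed, and the difference between the role groups was not tested.

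The ligands, receptors and signalling genes of the pathway were read from separate lists, beside the same share of all genes called as above. Of 11 ligands and receptors with a row, 6 passed the filter, and none of those was an interferon. Ifna2, Ifna4 and Ifne were at 0 in all 16 libraries, which allows up to 3 reads in each, Ifnb1 was at 0 in 15, and Ifng was at 0 to 2 normalized counts and at 0 in all 4 TAC-THZ1 libraries. Ifngr1, the ligand-binding chain of the interferon gamma receptor, rose with TAC in vehicle (0.79, adjusted p = 8.95e-06) and was lower with THZ1 under load (-0.53, adjusted p = 0.000873). It was at 1394 to 1518 in Sham-Veh, at 2310 to 3164 in TAC-Veh and at 2033, 1720, 1517 and 1761 in TAC-THZ1. Its order across the TAC-THZ1 libraries was thus not that of the GTPases. Il10rb, a chain of the receptors for type III interferons and interleukin 10, fell with TAC in vehicle (-0.45, adjusted p = 0.000287) and rose with THZ1 under load (0.58, adjusted p = 0.000151). In all, 2 of the 6 rose and 2 fell with TAC in vehicle, 2 rose and 1 fell with THZ1 under load, 0 changed with THZ1 in sham mice and 1 rose with TAC under THZ1. Of 21 signalling genes, 3 rose and 3 fell with TAC in vehicle, 1 rose (Mavs) and 1 fell (Stat3) with THZ1 under load, 0 changed with THZ1 in sham mice, and 2 rose and 1 fell with TAC under THZ1.

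Another 59 interferon-stimulated genes outside the 41 passed the filter. With THZ1 under load 9 rose and 2 fell, with a median of 0.25 against 0.15 for the members. Psme1, a subunit of a proteasome activator, rose by 0.61 (adjusted p = 8.45e-05). It was at 1776, 1427, 1904 and 1513 in TAC-Veh and at 2447, 2531, 2751 and 2341 in TAC-THZ1, so that all 4 treated libraries, and not 2, were above the vehicle libraries. Slfn5 was among those that fell (-0.33, adjusted p = 0.0202). With TAC in vehicle 6 rose and 4 fell, Ifitm2 by 0.94 being among the former and Psme1 among the latter, and with THZ1 in sham mice 0 changed. With TAC under THZ1 13 rose and 1 fell, and in the interaction 3 were more positive, namely Cxcl9, Psme1 and its partner subunit Psme2. Cxcl9, a chemokine induced by interferon gamma, was at 61.1, 114, 88.2 and 136 in TAC-Veh and at 284, 108, 346 and 132 in TAC-THZ1, again with replicates 1 and 3 apart. Cxcl9 and Psme2 were singled out after their values were seen.

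**Figure D5:**
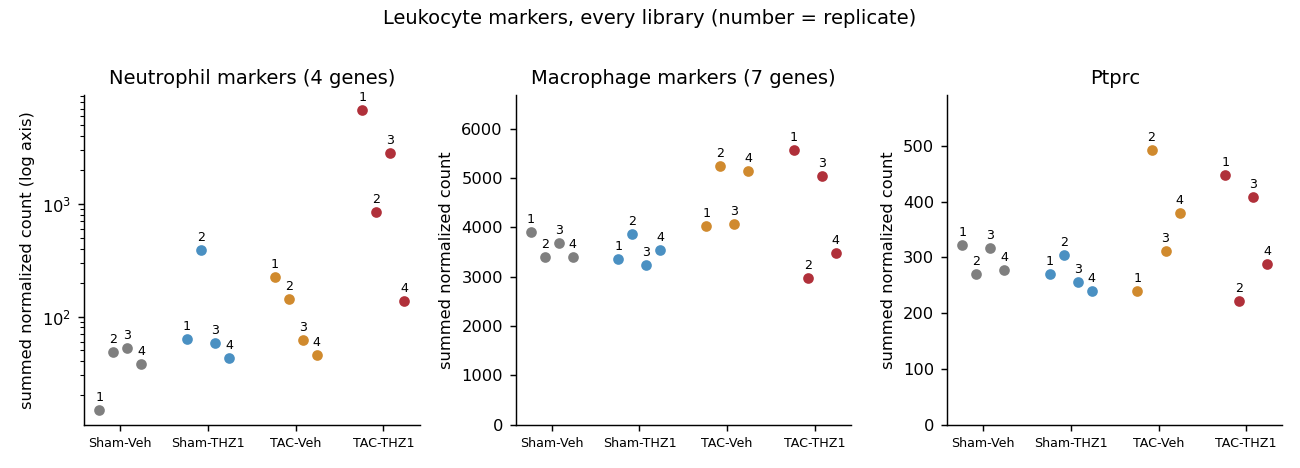
Panels plot, for every library by group with its replicate number, the summed normalized count of 4 neutrophil markers on a log axis, of 7 macrophage and monocyte markers on a linear axis, and the normalized count of Ptprc on a linear axis. In TAC-THZ1, replicates 1 and 3 are above replicates 2 and 4 in all 3 panels.

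Some leukocyte markers, and not others, were higher in TAC-THZ1 replicates 1 and 3 than in replicates 2 and 4, as the GTPases were. For the neutrophil markers replicates 2 and 4 differed as well, whereas their GTPase medians were nearly the same (-0.44 and -0.42). The summed count of 4 neutrophil markers was 6818, 855, 2823 and 138 in TAC-THZ1 replicates 1 to 4 and 14.9 to 386 in the other 12 libraries, with Ly6g, a defining marker, at 9.83 or less throughout. S100a8 alone was at 2840, 321, 1048 and 56.4. The 7 macrophage and monocyte markers summed to 5566, 2978, 5031 and 3489 in TAC-THZ1 and to 4027, 5250, 4075 and 5140 in TAC-Veh, and Ptprc, the pan-leukocyte antigen CD45, was at 448, 222, 408 and 288 in TAC-THZ1 and at 240 to 493 in TAC-Veh. The 7 T and NK cell markers, of which 1 passed the filter, summed to 42.6, 34.4, 53.7 and 38.6 in TAC-THZ1 replicates 1 to 4. Replicates 1 and 3 were thus above replicates 2 and 4, and all 4 lay within the 24.7 to 57.1 of the other libraries. Cd3e was at 4.29 or less in every library. The 3 plasmacytoid dendritic cell markers summed to 0, 6.37, 1.63 and 0.99 in TAC-THZ1. The 4 B cell markers summed to 39.3, 56.0, 57.8 and 94.0 in TAC-THZ1 replicates 1 to 4, with replicate 1 the lowest and replicate 4 the highest. They summed to 87.0 to 124 in TAC-Veh, 45.3 to 63.1 in Sham-THZ1 and 68.1 to 81.7 in Sham-Veh, and 2 of the 4 fell with THZ1 under load.

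Markers of the cells of the heart itself also differed between the groups. The 6 cardiomyocyte markers summed to 1237410 to 1332440 in Sham-Veh, 659329 to 961688 in TAC-Veh and 1073300 to 1334200 in TAC-THZ1. Of the 6, 3 fell with TAC in vehicle (median -0.63) and 4 rose with THZ1 under load (median 0.47). The 5 fibroblast markers summed to 18078 to 20008 in Sham-Veh, 35575 to 46341 in TAC-Veh and 22179 to 33130 in TAC-THZ1, and 3 rose with TAC in vehicle and 3 fell with THZ1 under load. The 5 endothelial markers summed to 18031 to 20035, 15285 to 20330 and 14205 to 15502 in the same groups, and 2 fell with TAC in vehicle and 3 fell with THZ1 under load. The part of any of these cells in the values of the members was not tested.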

How the data were processed

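Gene expression was measured by stranded mRNA sequencing of 16 ventricle libraries with 40-base single-end reads. Per the study's methods and the submitters' processing notes, the authors aligned reads to mm9 with TopHat2 2.1.1, counted them per GENCODE gene with HTSeq in reverse-stranded mode and divided each library's counts by a DESeq2 size factor, so the deposited signal is a normalized count. Dividing by each library's smallest step gave whole reads for 100% of values (tolerance 0.01), with size factors of 0.749 to 1.40.

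The test was limma 3.58.1 (R 4.3.3), fitted to log2 values (pseudocount 1) of all 16 libraries, with a mean for each group and a variance trend, for genes with at least 10 in at least 4 libraries. Fold changes are on that scale and understate changes of low genes. P-values were adjusted by Benjamini and Hochberg over 13331 genes within each contrast, and genes were called at an adjusted p under 0.05. DESeq2 1.42.0 and edgeR 4.0.16 were run on the recovered reads. The fits were tested on simulated data. In each contrast the 4 called members with the smallest adjusted p are given in full. Members and lists were chosen with earlier results of these data known. Replicates differed by a chi-square of 3.06 to 98.3 for each degree of freedom, so no libraries were merged. The labels give no batch or date.

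Promoters come from RefSeq (GRCm38.p6) and gene positions from GENCODE on NCBIM37. The same-numbered libraries of different groups did not deviate together (correlations -0.431 to 0.164, with 2 of 24 pairs above 0.1), so the numbers were not used as pairs. The values of a signalling gene are not reported here.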

Additional observations from a re-analysis of the deposited data

Results flagged for a closer look

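In 11 of 160 combinations of a member and a group, the highest or lowest of the 4 libraries was separated from the nearest other by more of the group's range than Dixon's criterion allows, which happens by chance in about 1 in 20 groups. In Sham-Veh, replicate 1 stood above the others for Irf9 (583), Gbp6 (344) and Irgm2 (1114). In Sham-THZ1, replicate 2 was high for Ifit1 (133), replicate 1 was high for Gbp7 (726), and replicate 3 was low for Ifit3 (110) and Ifi35 (311). In TAC-Veh, replicate 2 was high for Mx1 (85.8) and replicate 1 low for Trim21 (155). In TAC-THZ1, replicate 2 was low for Ifit1 (98.0) and Mx1 (15.3). None of the 9 GTPases in TAC-THZ1 was separated in this way, since there 2 libraries stood apart from the other 2 and not 1 from 3.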

How the results depend on the processing

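No member called in any contrast changed direction under the 28 alternatives run for it. For TAC-THZ1 against TAC-Veh, 6 members were called higher: 3 with no filter on low counts, 3 with upper quartile scaling, 0 with the groups compared alone, 0 with array weights, 12 with DESeq2, 11 with edgeR, 0 without both TAC-THZ1 replicates 1 and 3, and 0 to 12 leaving out 1 library at a time. The count of members lower there was 0 to 1 leaving out 1 library. For TAC-THZ1 against Sham-THZ1, 4 were called higher: 2 with no filter, 10 with array weights, 16 with DESeq2, 11 with edgeR, 0 with a log2 fold threshold of 1, 0 without both libraries, and 0 to 21 leaving out 1. The study set that threshold for genes higher in TAC-Veh than in Sham-Veh and gave none for this contrast. For TAC-Veh against Sham-Veh, 2 were lower: 0 with array weights, 1 with the same fold threshold, 5 without both libraries, 0 to 3 leaving out 1, and 0 to 2 were higher when 1 was left out. For Sham-THZ1 against Sham-Veh, 0 were lower: 6 with the groups compared alone and 3 with array weights. In the interaction 0 were more positive: 5 with DESeq2, 2 with edgeR and 0 to 3 leaving out 1 library. The counts in this section, those with a block below included, stand without the share of all genes called in the same setting. That share also changes with the setting, so the counts show only how the calls of the members moved. The cause of these differences was not tested.

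With the replicate number as a block (replicate block), 4 members were called higher for TAC-THZ1 against TAC-Veh, 3 for TAC-THZ1 against Sham-THZ1 and 2 lower for TAC-Veh against Sham-Veh, and 0 in the other contrasts. Of the called members, Irf1, Irgm2, Ifit3 and Rtp4 lost the call under the block, B2m gained one against Sham-THZ1, and the numbers did not pair the libraries. Members at low counts, such as Mx1 with 9 reads in 1 library, have the least precise values.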
